A study of Mus musculus with 96 samples.

Results

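Brain of 2-month-old mice was compared with 5 other solid organs, kidney, liver, small intestine, heart and skeletal muscle, by bulk RNA sequencing. The series holds 96 libraries, of which 89 come from these 6 organs, and 55 were kept: 12 of 15 from brain, 9 of 15 from kidney, 9 of 15 from liver, 6 of 15 from small intestine, 6 of 14 from heart and 13 of 15 from skeletal muscle. A library was kept when Pou5f1, which encodes the reprogramming factor OCT4, was below 1 CPM (a gene's estimated counts per 1000000 of its library) and when genes named mt-, encoded by the mitochondrial genome, took at most 50% of the total. A gene was called brain-high, or brain-low, only when its brain level was at least 2-fold higher, or lower, with an adjusted p below 0.05 in edgeR's quasi-likelihood test against each of the 5 organs.

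Each organ group mixes genotypes. The labels describe wild-type mice (WT) and 4 strains called reprogrammable, 4Fj, 4FsB, 4Fk and 4FsA, made for inducing reprogramming factors in the living animal. Every organ was taken from all of these genotypes, at the same age. The count columns carry a tissue code and a running number and no genotype, so the genotype of a kept library, and any effect of genotype within an organ, was not analysed here. The labels name neither the promoters that drive the factors nor an inducing treatment. The labels do not say whether samples of a group came from separate animals, so p-values measure only the spread between these libraries.

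Brain tissue is built of neurons, which signal to each other at synapses, and of glia: oligodendrocytes wrap axons in myelin, astrocytes take up transmitter and buffer ions, and microglia are the resident macrophages. Neurons release transmitter from synaptic vesicles through SNARE proteins, and receptors and scaffolds on the receiving side read the signal. The organ is also known for a tight vascular barrier, for burning glucose in preference to fatty acids and for low surface display of major histocompatibility complex (MHC) proteins. In bulk tissue, fewer cells of a type and less RNA per cell cannot be told apart, and this holds for every difference below.

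The kept libraries held 6624474 to 17706733 estimated counts, and those of brain 9736496 to 14444384. Mitochondrially encoded genes took 4.49% to 21.8% of brain counts, 30.4% to 40.2% of heart counts and up to 46.4% in single libraries of the other organs. The factor of edgeR's trimmed mean (TMM) scaling, by which a library's total is multiplied before genes are compared, had a median of 1.61 in brain and of 0.78 in skeletal muscle. CPM values below are therefore relative to library totals, while log2 differences (brain over organ, with their SE) are fitted on the TMM scale. The kidney library in column 10 had the highest kidney CPM of Snap25, Syt1 and Th, genes of neurons. Without it, 2769 of the genes called brain-high and 1027 of those called brain-low on all 55 libraries kept their calls. The median log2 difference from kidney over all genes then moved from 0.06 to -0.09. That shift was not particular to column 10. The median lay between -0.12 and -0.09 without kidney column 1, 2, 3 or 5, small intestine column 2 or any 1 brain library. The brain libraries in columns 1 to 3 stood apart from the other 9 in some genes, and their genotype is not known here. Gfap, of astrocytes, lay at 637 to 1279 CPM in these 3 and at 77.0 to 226 CPM in the other 9. All 3 lay above the other 9 for 228 of the 1031 brain-low genes defined below. The same count over all tested genes was not made, so this number is not particular to brain-low genes. Without them, an alternative chosen after seeing the data, 2672 genes were brain-high and 1344 brain-low, and 2649 and 989 of the calls on all 12 brain libraries were among them. Leaving out any 1 of the 12 brain libraries already gave 2725 to 2764 brain-high and 1165 to 1232 brain-low genes.

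The label of the tissue was checked first with Snap25 and Syt1, which encode a SNARE protein of the presynaptic membrane and the calcium sensor of synaptic vesicles. Snap25 lay at 1524 CPM in the lowest, 2560 in the median and 3781 in the highest brain library. It had no count in any kept liver library, at most 0.151 CPM in heart, 1.16 in kidney and 1.38 in skeletal muscle, and 0.132 to 13.2 CPM in small intestine, an organ with its own nerve plexus. Syt1 ranged from 656 to 1681 CPM in brain, with a median of 1298, and reached 17.4 CPM in small intestine, 10.6 in liver, 4.45 in kidney, 0.602 in muscle and 0.185 in heart. For both genes every brain library lay above every library of the other organs. The difference nearest to 0 was that from small intestine, with a log2 difference of 7.73 ± 0.86 (SE, adjusted p = 5.8e-11, edgeR) for Snap25 and 6.52 ± 0.70 (adjusted p = 5.2e-12) for Syt1. Against liver, Snap25 was at least 78458-fold higher in mean CPM, taking the liver libraries together at a floor of 3 counts.

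Of 19044 genes tested, 2939 were brain-high, 15.4% of all, and 1031 were brain-low, 5.41%. The brain-high genes made up 26% to 36.7% of the counts of a brain library, with a median of 34.6%, and between 0.929% and 2.14% in the median library of each other organ. The brain-low genes took a median of 8.2% of brain counts against medians of 21.8% to 42.6% elsewhere. Brain-high differences were large: the smallest of the 5 log2 differences of a gene had a median of 3.18, and 717 genes were at least 32-fold higher than in every organ, with any group below 3 counts put at that floor. Brain-low differences were smaller, with a median of -1.76 by the same measure and 15 genes at least 32-fold lower. On the CPM scale, the lowest brain library lay above all 43 libraries of the other organs for 2826 genes, 14.8% of those tested, and the highest lay below them for 42, or 0.221%. With CPM divided by the TMM factor these counts were 2064 (10.8%) and 232 (1.22%). Without brain columns 1 to 3 they were 3207 (16.8%) and 80 (0.42%) on the CPM scale. Against single organs, 28.4% of genes were higher in brain than in kidney, 32.7% than in liver, 33.5% than in small intestine, 28.7% than in heart and 34.8% than in muscle, and 25.4%, 27.7%, 24.8%, 21.7% and 25% were lower. The organ nearest to brain was small intestine for 849 of the brain-high genes, heart for 674, kidney for 660, muscle for 505 and liver for 251.

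**Figure D1:**
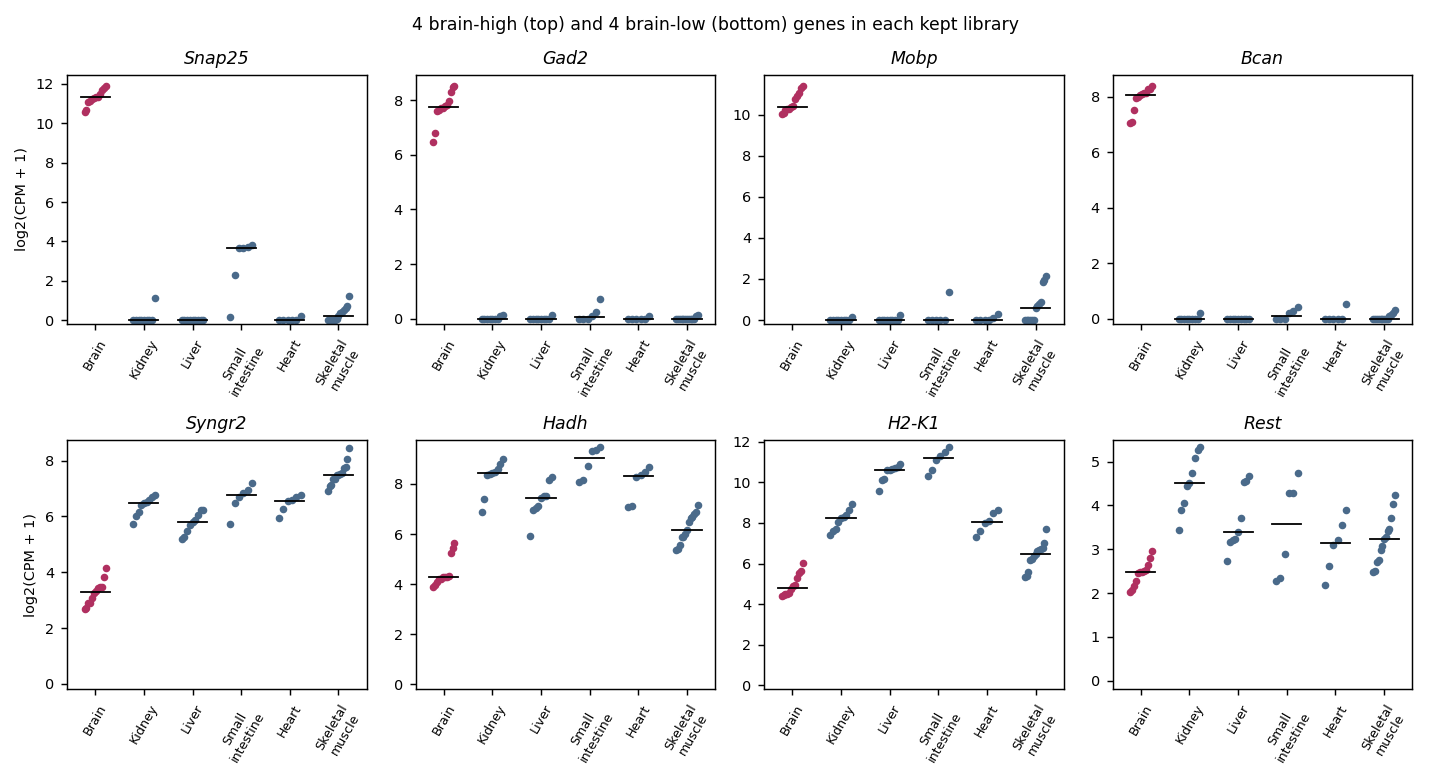
Level of 4 brain-high genes (top) and 4 brain-low genes (bottom) in each of the 55 kept libraries, as log2(CPM + 1) by organ, with a bar at the organ median. Brain libraries of the top genes lie above all others, Snap25 at 1524 CPM or more, and brain libraries of Syngr2 lie below all others at 5.45 to 16.8 CPM, while those of Hadh, H2-K1 and Rest overlap with the lowest libraries of other organs.

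Genes of the synaptic vesicle cycle were brain-high without exception among the 25 listed, where 15.4% of all tested genes were. That share stands beside the brain-high count of every list below. The list's median log2 difference ran from 6.52 against small intestine to 9.15 against liver, where the median of all genes tested was 0.06 to 0.26 over the 5 organs. The vesicular transporters separate the transmitter types. Slc32a1, which loads GABA and glycine, lay at 70.0 to 243 CPM in brain, had no count in any kidney, liver, small intestine or muscle library, and reached 0.79 CPM in heart. Gad2, which makes GABA, lay at 86.7 to 364 CPM in brain and at most at 0.644 CPM elsewhere. Slc17a6 and Slc17a7 load glutamate. Slc17a6 lay at 11.7 to 122 CPM in brain and at most at 0.232 CPM elsewhere, whereas Slc17a7, at 504 to 1607 CPM in brain, was also present in all heart libraries, at 4.72 to 71.3 CPM. Sv2b, a vesicle membrane protein, lay at 209 to 566 CPM in brain and at most at 2.51 CPM in another organ. The count stayed at 25 when any single library was left out and when brain was fitted with 1 other organ at a time.

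At the presynaptic active zone, where vesicles dock, 14 of 15 tested genes were brain-high. Nrxn3, an adhesion receptor, was highest outside brain in small intestine and differed from it by a log2 of 7.38 ± 0.77, and Cadps, which primes dense-core vesicles, by 5.99 ± 0.51. The exception was Cask, a scaffold kinase, whose log2 difference from small intestine was -0.41 ± 0.21 (adjusted p = 0.082, edgeR), while it was higher in brain than in the other 4 organs. On the receiving side, 16 of 20 postsynaptic scaffolds and kinases were brain-high. Dlgap3, a scaffold of excitatory synapses, lay at 174 to 651 CPM in brain and at most at 1.95 CPM elsewhere, and Nrgn, a calmodulin-binding protein of dendrites, lay at 716 to 2313 CPM against at most 14.6 CPM. Camk2a, the kinase of synaptic plasticity, had 943 to 4783 CPM in brain, and the nearest organ was skeletal muscle, at 64.7 to 553 CPM and a log2 difference of 2.01 ± 0.33.

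The 4 postsynaptic genes that were not called each met another organ at a similar level. Homer1 differed from muscle by a log2 of 0.31 ± 0.23, although its brain libraries all lay above muscle on the CPM scale, at 81.8 to 193 against 24.6 to 76.0 CPM. Shank3 differed from heart by 0.05 ± 0.35 and Dlg3 from small intestine by 0.02 ± 0.35. Gphn, the gephyrin scaffold of inhibitory synapses, passed against 2 organs only, small intestine and heart.

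Of 36 tested subunits of glutamate and GABA receptors, 35 were brain-high, and the list's median log2 difference was between 7.50 and 8.92 in the 5 organs with groups below 3 counts put at that floor. Grm5, a metabotropic glutamate receptor, lay at 73.5 to 179 CPM in brain and at most at 0.192 CPM elsewhere. Gabra5, a GABA-A subunit of the hippocampus, lay at 37.7 to 90.2 CPM in brain and at most at 0.473 CPM elsewhere. Grin2b, an NMDA receptor subunit, varied more among brain libraries, from 37.7 to 296 CPM, and did not exceed 0.584 CPM in another organ.

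Brain-high calls were made for 25 of 27 neuronal sodium, potassium and calcium channel genes. Scn1a, a sodium channel of the axon, lay at 74.0 to 145 CPM in brain and at most at 0.368 CPM elsewhere, and Cacng3, a receptor-associated channel subunit, lay at 45.0 to 129 CPM with no counts in kidney, small intestine or heart. Kcnc1, a fast potassium channel, missed the 2-fold limit against muscle, at 0.86 ± 0.37, and was higher in brain than in the other 4 organs.

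Among genes of the neuronal cytoskeleton and axonal transport, 23 of 24 were brain-high. Kif5a, a neuronal kinesin motor, lay at 1306 to 2490 CPM in brain and at most at 19.7 CPM elsewhere, and Nefl, the neurofilament light chain, at 361 to 572 CPM against at most 3.57 CPM. Ank3, which organises the axon initial segment, was the exception, with a log2 difference of 0.19 ± 0.22 from muscle and 0.59 from kidney. Neural transcription factors were brain-high in 28 of 32 cases and neural RNA-binding proteins in 14 of 17. Neurod2, a cortical factor, had no count in kidney, liver, heart or muscle, and its mean was at least 1924-fold higher in brain than in any of these 4 organs at the floor. Rbfox3, which encodes the neuronal nuclear antigen NeuN, lay at 127 to 405 CPM in brain and at most at 2.43 CPM elsewhere.

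Of the 4 transcription factors that were not called, Pou3f3 lay at 54.7 to 151 CPM in brain and 56.9 to 180 CPM in kidney, with at most 2 CPM in the remaining 4 organs. Mef2c, also a muscle factor, differed from muscle by a log2 of -0.51 ± 0.41 and Tcf4 from heart by 0.07 ± 0.25. Among RNA-binding proteins, Rbfox1, a splicing factor of neurons and striated muscle, differed from muscle by -0.34 ± 0.32 and was higher in brain than in heart, by 2.94. Sox2, a factor of neural stem cells and glia, was brain-high in the kept libraries at 27.4 to 42.6 CPM against at most 1.41 CPM elsewhere. It is also one of the reprogramming factors, and with all 89 libraries its log2 difference from the nearest organ was -1.50.

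Neuropeptides and proteins of dense-core vesicles were brain-high in 19 of 20 cases. Vgf, a granule protein, lay at 160 to 502 CPM in brain and at most at 3.71 CPM elsewhere. Peptides shared with the gut endocrine cells had small intestine as the nearest organ: Sst differed from it by a log2 of 2.72 ± 0.36 and Cck by 4.20 ± 0.70. Chga, a granule protein of endocrine cells, lay at 85.4 to 227 CPM in brain and 13.8 to 48.5 CPM in small intestine, a log2 difference of 1.26 ± 0.51 (adjusted p = 0.028, edgeR). Its call was lost with DESeq2, with the lower Pou5f1 limit, without the 2 brain libraries of highest mt- share and in 13 of the 55 fits that left out a library. Vip, a peptide of enteric neurons and of cortical interneurons, did not pass against small intestine, at 0.81 ± 0.48.

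**Figure D2:**
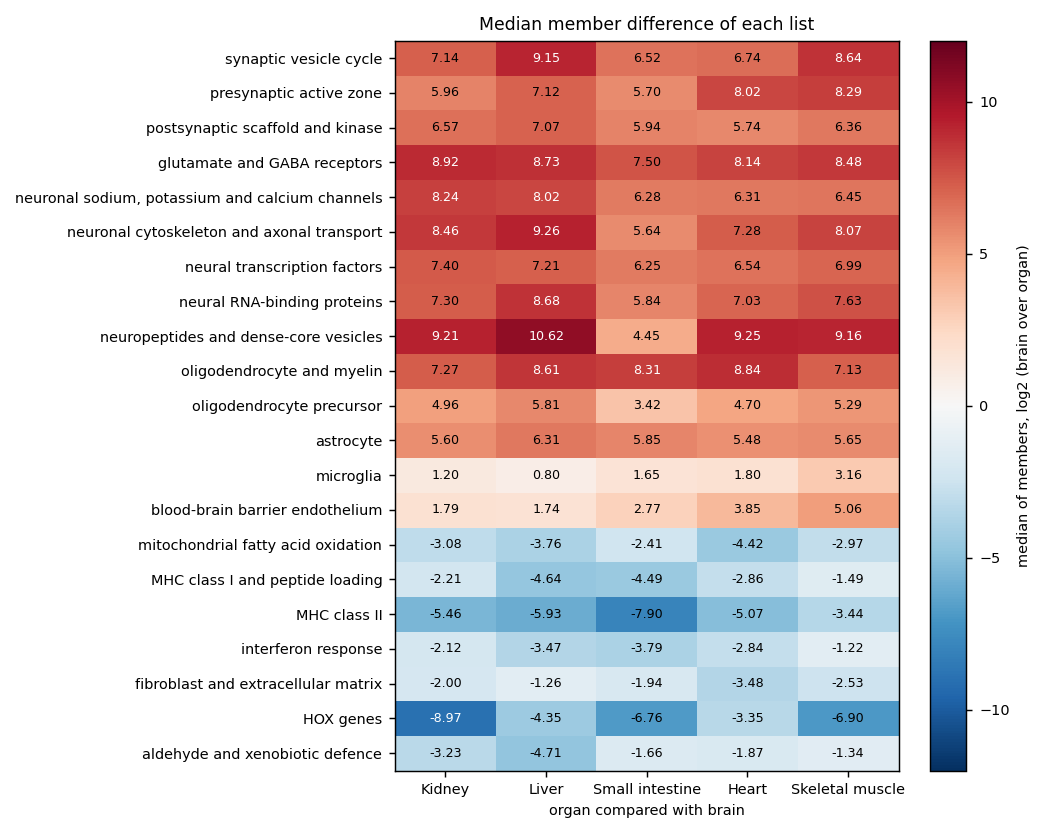
Median log2 difference, brain over organ, of the tested members of 21 gene lists (rows) against each of 5 organs (columns), on the TMM scale, with groups below 3 counts put at that floor. Neuronal lists stand above 4 in every column, microglia between 0.80 and 3.16, and the lists at the bottom below 0 in every column.

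Several genes of single brain regions spanned wide ranges over the brain libraries. Of the 1270 brain-high genes with a mean of at least 50 CPM, 1093 (86.1%) lay within a 4-fold range over the 12 brain libraries after adding 1 CPM, and 20 spanned more than 8-fold. Snap25 spanned 1524 to 3781 CPM. All 9 striatal genes were brain-high. Drd1 and Drd2, the dopamine receptors of striatal output neurons, lay at 15.1 to 97.6 and 20.9 to 98.5 CPM. Ppp1r1b, which encodes the dopamine-regulated phosphatase inhibitor DARPP-32, also reached 420 CPM in small intestine, and its call, at a log2 of 1.12 ± 0.45, was lost when brain and small intestine were fitted alone and in 9 of the fits that left out a library.

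Hypothalamic and pituitary genes were at or near 0 in some brain libraries and abundant in others. Pmch, the melanin-concentrating hormone precursor of the lateral hypothalamus, lay at 0.0834 CPM in the lowest, 33.3 in the median and 167 in the highest brain library. Avp and Oxt, the vasopressin and oxytocin precursors, lay at 0.0894 to 100 and 0 to 54.8 CPM. Gh, the growth hormone of the anterior pituitary, lay at 0 to 662 CPM with a median of 8.11. These 4 genes were brain-high in the fit over all 6 organs, and were not called when brain was fitted with 1 other organ at a time or when all 89 libraries were used. In the pairwise fits the filter on low counts left them without a value against some organs. The smallest log2 differences left there were 11.92 for Pmch, 7.87 for Avp, 9.19 for Oxt and 7.72 for Gh. With all 89 libraries they did not pass that filter. Ttr, the carrier made by choroid plexus and liver, lay at 1.49 to 1729 CPM in brain, against 3628 to 6577 CPM in liver, and was higher in brain than in the other 4 organs. Of the 11 genes of the choroid plexus list only Kcne2 and Otx2 were brain-high, where 15.4% of all genes were, and both calls were lost in the pairwise fits. Pmch and Kcne2 did not pass the filter on low counts without brain columns 1 to 3. Cbln1, a synaptic organiser of cerebellar granule cells, lay at 4.76 to 51.3 CPM. The parts of the brain in each library are not given in the labels, and their part in these ranges was not tested.

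**Figure D3:**
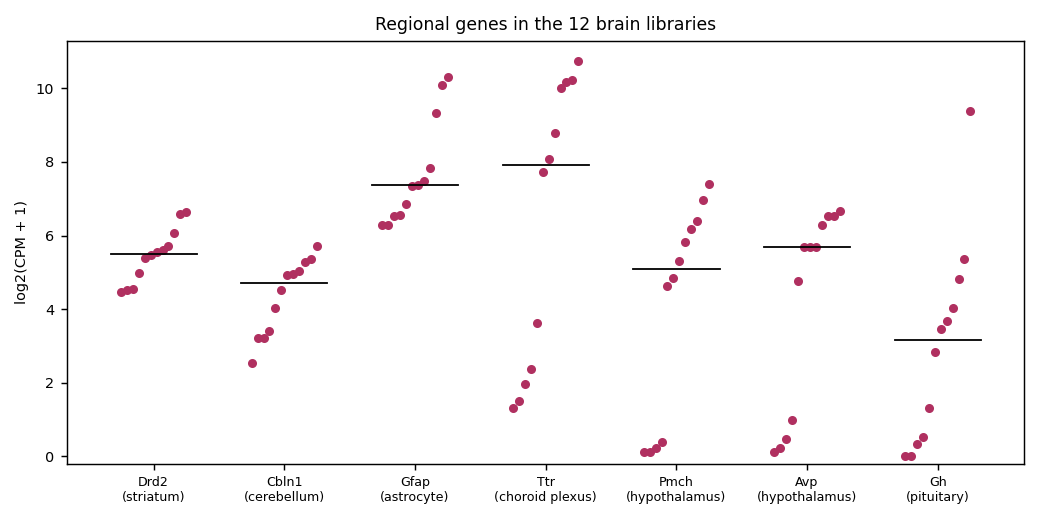
Level of 7 regional or cell-type genes in each of the 12 brain libraries, as log2(CPM + 1) with a bar at the median. Drd2 stays within 20.9 to 98.5 CPM, whereas Ttr, Pmch, Avp and Gh run from near 0 to 1729, 167, 100 and 662 CPM.

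Myelin genes were high in all 12 brain libraries. Of 18 genes of oligodendrocytes and myelin, 14 were brain-high. Mbp, myelin basic protein, lay at 2053 to 5520 CPM in brain and at most at 54.6 CPM elsewhere. Mobp, a myelin protein of the central nervous system, lay at 1035 to 2664 CPM in brain and at most at 3.49 CPM, in muscle. Mog, at the outer myelin surface, lay at 44.5 to 145 CPM in brain against at most 0.176 CPM. The 4 exceptions are also made by other organs: Mal reached 94.7 to 274 CPM in kidney against 215 to 640 in brain, Ugt8a 5.13 to 136 CPM in kidney against 14.6 to 144, Myrf did not pass against small intestine or liver, and Aspa was lower in brain than in kidney and small intestine, by log2 differences of -1.98 and -3.18. Of 8 genes of oligodendrocyte precursors, 5 were brain-high. Pdgfra, their best known receptor and also a fibroblast gene, differed from heart by 0.07 ± 0.36.

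Of 20 astrocyte genes, 11 were brain-high. Bcan and Ncan, proteoglycans of the brain matrix, lay at 132 to 333 and 44.3 to 187 CPM in brain and at most at 0.448 and 1.16 CPM elsewhere. Gfap, the astrocyte intermediate filament, ranged from 77.0 to 1279 CPM over the brain libraries with a median of 164. Slc1a2 and Slc1a3, the glial glutamate transporters, lay at 831 to 2159 and 243 to 688 CPM, and the organ nearest to brain was liver for Slc1a2, at 30.9 to 124 CPM and a log2 difference of 3.04 ± 0.51. Slc6a11, the GABA transporter of astrocytes, had the largest smallest difference of the 25 brain-high genes named by size. It had no count in kidney, liver or small intestine, where brain was at least 5179-fold higher in mean CPM at the floor. Astrocyte genes that were not called include Aqp4, the water channel, which kidney also held at 6.77 to 97.0 CPM, and Glul, glutamine synthetase, which muscle held at 185 to 1955 CPM against 959 to 1774 in brain. Gja1, a gap junction protein, was lower in brain than in heart, by a log2 difference of -1.24 ± 0.39.

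Microglial genes were called in 3 of 15 cases, a share close to the 15.4% of all genes. Siglech, P2ry12 and Cx3cr1, which set microglia apart from many other macrophages, lay at 3.44 to 19.2, 3.80 to 43.3 and 5.66 to 68.4 CPM in brain. P2ry12 and Cx3cr1 overlapped with the highest libraries of other organs, and the Cx3cr1 call was lost without brain columns 1 to 3. The other 12 genes were not called. Among them, Tmem119 and P2ry13, also known as microglial genes, differed from kidney by a log2 of 0.64 ± 0.38 (adjusted p = 0.13, edgeR) and from liver by -0.17 ± 0.54, and were higher in brain than in the other 4 organs. Csf1r, the growth factor receptor of macrophages, lay at 41.9 to 77.3 CPM in brain and differed from kidney by a log2 of 0.01 and from heart by -0.01. C1qa, a complement component, was lower in brain than in liver, by -1.77 ± 0.40. Of 13 genes of the blood-brain barrier endothelium, 5 were brain-high. Slco1c1, a thyroid hormone carrier of brain capillaries, lay at 15.8 to 47.0 CPM in brain and at most at 0.74 CPM elsewhere, and Slc2a1, the glucose transporter of the barrier, differed from kidney, the nearest organ, by 1.30 ± 0.34. Cldn5, the endothelial tight junction gene, was lower in brain than in muscle, by -1.45 ± 0.39.

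Calls against each of 5 organs leave out genes that brain shares with a single organ, and 1377 genes were higher against all but 1. The organ that failed the test was heart for 343, kidney for 331, small intestine for 290, muscle for 263 and liver for 150. Some of the genes with high brain CPM in these groups were named after their values were seen. App, the amyloid precursor protein, had a mean of 1607 CPM in brain and 935 in kidney, a log2 difference of 0.60. Ptgds, a prostaglandin synthase of the meninges, had 994 CPM in brain and 470 in heart, a log2 of 0.29. Ppp3ca, a calcineurin subunit, had 1363 CPM in brain and 292 in muscle, a log2 of 0.87. Apoe, the lipid carrier of astrocytes and hepatocytes, had 1800 CPM in brain and 20704 in liver, a log2 of -4.55.

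**Figure D4:**
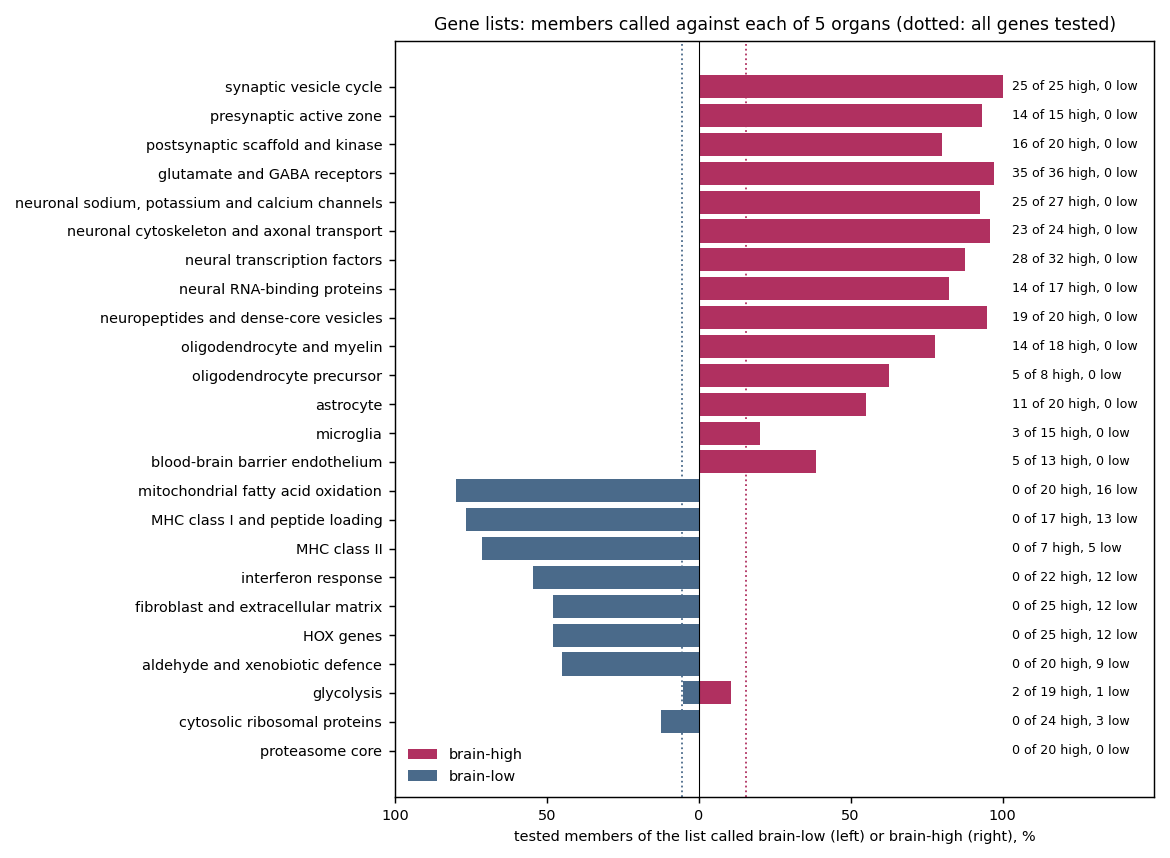
Share of the tested members of 24 gene lists called brain-high (right) or brain-low (left) against each of 5 organs, with the counts printed at the right. Dotted lines mark the share of all tested genes, 15.4% brain-high and 5.41% brain-low. Every neuronal list lies far right of its line, and microglia, at 3 of 15, lies close to it.

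Many proteins come in pairs of a neural member and a relative of other tissues, here called widespread, and 43 such families were followed. Some members so called are abundant in few organs. Ckm, of muscle, had log2 differences of -19.24 from skeletal muscle and -2.81 from kidney. Of 52 neural members 46 were brain-high, against 3 of 48 widespread members, where 15.4% of all tested genes were. Of the 48 widespread members 5 were brain-low, where 5.41% of all tested genes were. Ckm is among these 5, and its call was lost without kidney column 10. In 35 families every neural member lay above every widespread member in the log2 difference from each of the 5 organs. The SNARE pair showed opposite signs. Snap23, the widespread relative of Snap25, was lower in brain than in all 5 organs by log2 differences from -2.0 to -1.66, although with scaling by library totals only its smallest difference was -0.64 and it was not called. In the synaptogyrins, vesicle proteins of 4 membrane spans, Syngr3 was higher in brain by 5.01 to 11.29 and Syngr2 lower by -5.66 to -3.45. Syngr2 lay at 5.45 to 16.8 CPM in brain and at 35.1 CPM or more in every other library, and its smallest difference with library totals only was -2.59.

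Energy metabolism followed the same division in part. Eno2, the neuronal enolase, was higher by 6.66 to 10.41 while Eno1 lay between -0.65 and 2.34. The glucose transporter Slc2a3 of neurons was higher by 3.18 to 6.08, and the insulin-regulated Slc2a4 lay between -7.71 and -0.27. In the BAF chromatin remodelling complex, the neuronal subunit Actl6b was higher by at least 7.36, and Actl6a, its counterpart in dividing cells, lay between -1.50 and -0.99, and was called brain-low without brain columns 1 to 3. The splicing regulator Ptbp2 was higher by 1.13 to 2.17 and its relative Ptbp1 lay between -2.69 and 0.26. The call of Ptbp2 was lost in 7 of the 55 fits that left out a library, and in the fit without mt- genes. It was also lost without brain columns 1 to 3, where its smallest difference was 0.99. Neural members that were not called include Rbfox1, Hk1, Pfkp, Ldhb and Eef1a2. Ldhb, the lactate dehydrogenase subunit of oxidative tissue, was lower in brain than in heart by -1.75, and Eef1a2, an elongation factor of neurons and muscle, was lower than in muscle by -2.0. Ckm, the muscle creatine kinase, was called brain-low with all libraries, but it had no count in the median kidney library and 7.37 CPM in kidney column 10. Without that library its log2 difference from kidney was 2.91, and the call was also lost with limma-voom and in the pairwise fits. In the pairwise fits it was filtered out for low counts against some organs, and its smallest remaining difference was -14.77.

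**Figure D5:**
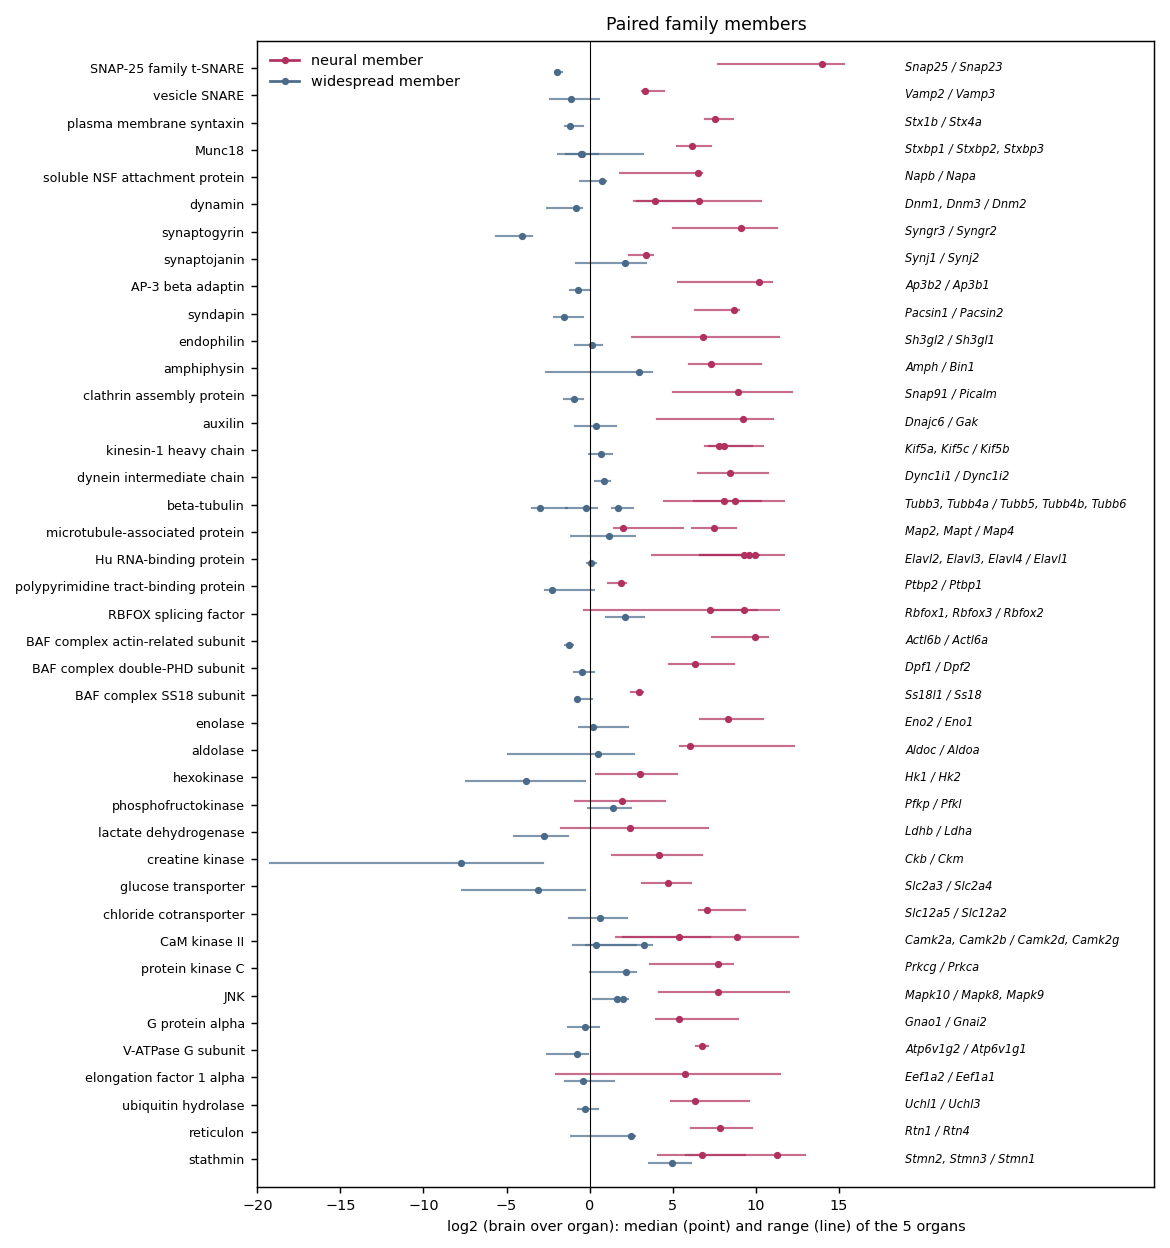
Log2 difference, brain over organ, of the members of 41 of the 43 families, with the median of the 5 organs as a point and their range as a line, groups below 3 counts being put at that floor. Neural members lie right of their widespread relatives in most rows, as Eno2 at 6.66 to 10.41 against Eno1 at -0.65 to 2.34.

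Brain-low calls depend on scaling more than brain-high calls. When libraries were scaled by their totals only, without the TMM factor, 371 of the 1031 brain-low genes kept the call, while all 2939 brain-high genes did. In all, 371 of the 19044 tested genes were brain-low in that setting. List counts given with library totals only are to be read beside that number. The median log2 difference over all genes then moved from 0.06 to 0.29 against kidney and from 0.24 to 1.42 against muscle. The share of brain-high among all calls moved from 74% to 91.7%.

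Across all genes, 118 brain-low genes had a mean of at least 50 CPM in each other organ. Syngr2 stood first among them by its smallest difference. It was followed by Neat1, the long noncoding RNA of paraspeckles, at 45.5 to 121 CPM in brain against 6.63 to 3808 in heart and 51.8 to 1515 in liver, so that its libraries overlapped. Map2k3, a stress kinase, and Msrb1, a selenoprotein that repairs oxidised methionine, lay below all other libraries, at 10.4 to 18.9 and 12.5 to 37.8 CPM in brain. Tpt1, an abundant translationally controlled protein, lay at 202 to 693 CPM in brain and at 565 CPM or more elsewhere, and Itgb1, the common integrin beta chain, lost its call with library totals only, at -0.97.

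Genes of mitochondrial fatty acid oxidation were lower in brain than in every other organ in 16 of 20 cases, where 5.41% of all genes were, and in 14 of 20 with library totals only. Hadh, which catalyses the third step of the beta-oxidation cycle, lay at 14 to 48.6 CPM in brain, with a median of 18.6. It lay at 117 to 502 CPM in kidney, 59.9 to 311 in liver, 267 to 713 in small intestine, 132 to 403 in heart and 39.8 to 141 in muscle. Brain overlapped with the lowest muscle libraries only, and its libraries in columns 1 to 3 lay at 37.4 to 48.6 CPM and the other 9 at 14 to 18.9. The log2 difference from muscle was -2.98 ± 0.24 (adjusted p = 2.8e-16, edgeR), and -3.54 without columns 1 to 3. Cpt2, of the carnitine shuttle that brings fatty acids into mitochondria, lay at 4.22 to 9.70 CPM in brain and at 26.6 CPM or more in every other library. Acadm and Acadvl, the medium and very long chain dehydrogenases, lay below all other libraries too, with smallest log2 differences of -2.63 ± 0.27 and -2.42 ± 0.20, both from small intestine. Etfa and Etfb, which pass their electrons on, had smallest log2 differences of -2.35 and -2.46. Cat, the peroxisomal catalase, lay at 27.6 to 50.1 CPM in brain and at 1006 to 2549 in liver. The genes that missed the call include Echs1 and Acsl1, which fell short of 2-fold against small intestine, at -0.85 ± 0.29 and -0.67 ± 0.28, and were lower than in the other 4 organs. Cpt1a, also of the carnitine shuttle, went the other way against muscle, with a log2 difference of 1.04 (adjusted p = 6.6e-06, edgeR), and was lower than in the other 4 organs. Echs1 was called without brain columns 1 to 3. Cd36, a fatty acid transporter of capillary endothelium and muscle, lay at 0.0992 to 3.40 CPM in brain and at 9.29 CPM or more in every other library.

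MHC class I and peptide loading genes were brain-low in 13 of 17 cases, where 5.41% of all tested genes were, and in 3 of 17 with library totals only. H2-K1, a classical class I heavy chain, lay at 20.2 to 64.8 CPM in brain, with a median of 27.1. It lay at 171 to 492 CPM in kidney, 755 to 1896 in liver, 1269 to 3389 in small intestine, 156 to 403 in heart and 39.8 to 206 in muscle. Only muscle libraries overlapped with brain, in columns 1 to 3, which lay at 45.8 to 64.8 CPM where the other 9 brain libraries lay at 20.2 to 37.6. The log2 difference from muscle was -2.72 ± 0.20, -1.50 with library totals only and -3.17 without columns 1 to 3. H2-D1, the other classical chain, differed from muscle by -2.23 ± 0.19, and by -0.93 with library totals only, where it was no longer called. B2m, the shared light chain, stood at the limit: its difference from muscle was -1.03 ± 0.24, its CPM in brain, 50.2 to 187, overlapped with that of muscle, 41.6 to 129, and with library totals only the sign turned, to 0.32. The B2m call was also lost with DESeq2, with its size factors, without the filter on low counts, and without muscle column 4 or column 9, where the difference was -0.98 or -0.84. Without brain columns 1 to 3 it was -1.60.

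MHC class II genes, made mainly by antigen-presenting cells, were brain-low in 5 of 7 cases and in 4 of 7 with library totals only. The share of all tested genes that were brain-low, 5.41%, stands beside each main count of this paragraph. Cd74, the invariant chain, lay at 1.61 to 14.7 CPM in brain, 12.6 to 63.7 in muscle and 84.1 to 4197 in small intestine. Of 22 interferon response genes 12 were brain-low, and 4 with library totals only. Irf7, which amplifies the response, lay at 0.719 to 3.67 CPM in brain and 57.3 to 196 CPM in small intestine, and Ifi35 lay below all other libraries at 1.30 to 3.78 CPM. Rsad2 and Gbp2 differed from muscle by -2.24 ± 0.41 and -2.14 ± 0.52, and by -0.90 and -0.65 with library totals only. Lymphocyte and leukocyte genes were brain-low in 3 of 20 cases, where 5.41% of all genes were, with a list median between -3.58 and 0.22. That count was 1 with library totals only, 0 in the pairwise fits, 6 with limma-voom, 5 with all 89 libraries, 7 without brain columns 1 to 3, and 2 to 6 with 1 library left out, the highest without brain column 2. Their part in the MHC and interferon differences was not tested.

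Fibroblast and extracellular matrix genes were brain-low in 12 of 25 cases, where 5.41% of all tested genes were. The count was 5 with library totals only, 6 with limma-voom and 8 with all 89 libraries. Col3a1, a fibrillar collagen, lay at 0.515 to 6.27 CPM in brain with a median of 2.13, and its medians elsewhere were 29.5 CPM in kidney, 33.3 in liver, 51.3 in muscle, 105 in small intestine and 131 in heart. Its smallest log2 difference was -4.36 ± 0.60, from kidney. Dpt, dermatopontin, a matrix protein, had at most 0.584 CPM in brain. Col1a1 differed from liver by -1.85 ± 0.57 and lost the call with limma-voom and with library totals only. Genes of aldehyde and xenobiotic defence were brain-low in 9 of 20 cases, beside the same 5.41%, and in 4 with library totals only. Adh1, an alcohol dehydrogenase, lay at 0 to 0.918 CPM in brain and at 6.63 CPM or more in every other library. Aldh2, the mitochondrial aldehyde dehydrogenase, lay at 58.1 to 108 CPM in brain and differed from muscle by -1.27 ± 0.22, and by -0.09 with library totals only.

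HOX genes, which mark position along the trunk, were brain-low in 12 of 25 cases. The share of all tested genes that were brain-low, 5.41%, stands beside each main count of this paragraph. Hoxa3 had at most 0.082 CPM in brain and 2.97 to 12.3 CPM in kidney, and Hoxb4 at most 0.265 CPM in brain and 5.11 to 38.5 in kidney. Levels in liver and heart were also low, at up to 1.16 and 0.887 CPM for Hoxa3. With library totals only 10 were called, and none of the 12 was called when brain was fitted with 1 other organ at a time. In those fits a gene filtered out for low counts against any organ had no value there and could not be called. The smallest log2 difference left in them was -8.99 for both Hoxa3 and Hoxb4. Mitochondrially encoded genes were brain-low in 10 of 13 cases. Their share of counts entered the choice of libraries, no such gene was called with library totals only, and leaving out 1 library moved the count between 5, without small intestine column 15, and 12. Nuclear genes of the respiratory chain were brain-low in 5 of 24 cases, in 0 with library totals only, in 5 to 12 with 1 library left out, the highest without brain column 3, and in 17 without brain columns 1 to 3.

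Some regulators of neural and metabolic genes were also lower in brain. Rest encodes the repressor that keeps neuronal genes silent outside the nervous system. It lay at 3.05 to 6.78 CPM in brain with a median of 4.58. Its range was 9.84 to 39.2 CPM in kidney, 5.60 to 24.6 in liver, 3.83 to 25.5 in small intestine, 3.51 to 14 in heart and 4.54 to 18.0 in muscle. All kidney libraries lay above brain, and the other 4 organs overlapped with it. The smallest log2 difference was that from heart, -1.60 ± 0.26 (adjusted p = 4.7e-07, edgeR), and -0.85 with library totals only. Ctdsp1, a phosphatase that acts with this repressor, lay at 22.7 to 35.5 CPM in brain and at 41.8 CPM or more in every other library. Ctdsp1 stayed brain-low with library totals only and Rest did not. The other 12 genes of the list of neural gene repressors were not called. Among metabolic nuclear receptors and coactivators 4 of 24 were brain-low, 2 with library totals only, and 3 brain-high, beside 5.41% and 15.4% of all tested genes. Nr1h3, a sterol receptor, lay at 0.715 to 7.64 CPM in brain and at 7.85 CPM or more elsewhere. Thra, the thyroid hormone receptor of brain and heart, lay at 516 to 741 CPM in brain and at most at 124 CPM elsewhere.

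The remaining lists of peripheral processes are given beside the 5.41% of all tested genes that were brain-low. Peroxisome genes were brain-low in 3 of 18 cases, genes of branched-chain and propionate breakdown in 2 of 20, general endothelium in 2 of 17, meninges and mural cells in 4 of 10, and caveolae in 0 of 7. With library totals only, these counts were 1, 0, 2, 1 and 0. The peroxisome count was 5 without any 1 of 18 libraries, namely the 12 of brain, kidney columns 1, 2, 3, 5 and 10 and small intestine column 2, and also without brain columns 1 to 3 together. That of branched-chain and propionate breakdown was 1 without heart column 11. In the list of the YAP and TEAD pathway, which controls growth in many epithelia, 2 of 13 were brain-low: Tead3 lay at 0.429 to 4.68 CPM in brain, and Yap1 at 15.5 to 29.1 CPM, with a smallest log2 difference of -1.84 ± 0.16, or -0.93 and no call with library totals only. The count of this list was 4 without any 1 of 13 libraries, namely brain columns 3, 4, 6, 9, 11 and 12, the same 5 of kidney, small intestine column 2 and muscle column 7. Of 13 genes of peripheral and enteric nerve, Th and Chat, the enzymes of catecholamine and acetylcholine synthesis, were brain-high, at 1.50 to 41.7 and 1.18 to 11 CPM, both overlapping with libraries of another organ. This share was close to the 15.4% of all tested genes that were brain-high. The list's median log2 difference was -1.05 against small intestine, and 0.65 to 2.13 against the others with groups below 3 counts put at that floor. Ependymal genes were brain-high in 4 of 6 cases, in 1 when brain was fitted with 1 other organ at a time, and in 2 without brain columns 1 to 3. Cerebellar genes were brain-high in 2 of 6, where 15.4% of all genes were.

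No gene of 20 in the proteasome core was called in either direction, and 3 of 24 cytosolic ribosomal protein genes were brain-low, where 5.41% of all genes were. None of the 24 was called with library totals only, and 11 were without brain columns 1 to 3, where 1 proteasome gene was brain-low. Of 19 glycolysis genes, Eno2 and Aldoc were brain-high and Ldha was brain-low. These shares were no higher than the 15.4% and 5.41% of all tested genes. The smallest difference of Ldha was -1.28 ± 0.29, which was -1.0 and no longer called with library totals only. Markers of the other organs were low in the brain libraries. Alb, of hepatocytes, was at 0 in the median brain library and at most at 4.57 CPM, against 32793 to 97497 CPM in liver. Acta1, of skeletal muscle, lay at 3.49 to 8.17 CPM, Vil1, of gut epithelium, at 0.246 to 1.32 CPM and Kap, of kidney tubules, at 0 to 3.21 CPM. Hba-a1, a red blood cell gene, ranged from 1.39 to 94.5 CPM in brain and was lower than in 4 organs. Blood left in the tissue was not tested for its part in other genes.

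Promoter sequences were available from RefSeq (GRCm38.p6) for 2040 of the brain-high and 756 of the brain-low genes, as 300 bases from 250 before to 50 after the start. They were searched on both strands for 14 short motifs. The core of the RE1 element, the site bound by the repressor that Rest encodes, was present in 15 of 2729 promoters of brain-high genes, 0.55%. It was present in 0.109% of promoters of brain-low genes, in 0.0885% of those of other tested genes and in 0.128% of all 32851 promoters. The interferon-type element, a pair of GAAA steps with a gap of 2 bases, was present in 7.42% of promoters of brain-low genes, in 2.57% of those of brain-high genes and in 3.44% of all. Differences in share were not limited to these 2 elements: CCGGAAGT, an ETS-type element, was present in 2.2% and 3.06% of the promoters of brain-high and brain-low genes and in 7.32% of those of other tested genes. GGGCGG was present in 53% and 53.5% of the promoters of brain-high and brain-low genes and in 56.5% of those of other tested genes, and CCAAT in 36.1% and 33.8%. A match describes these letters and no site of binding.

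The following windows of 60 bases show the RE1 core, in capitals and on either strand, in promoters of 4 brain-high genes: the GABA-synthesising enzyme Gad2, the AMPA receptor subunit Gria2, the histamine receptor Hrh3 and the axonal spectrin Sptbn4. Each is written 5′ to 3′ on the strand of its gene. Gria2, Hrh3 and Sptbn4 lay at 254 to 566, 62.4 to 229 and 48.6 to 423 CPM in brain, and at most at 1.23, 0.787 and 4.48 CPM elsewhere.
Gad2 (chr2:22622140-22622199, plus strand, GRCm38.p6): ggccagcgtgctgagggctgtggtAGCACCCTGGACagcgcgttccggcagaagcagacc
Gria2 (chr3:80802968-80803027, minus strand, GRCm38.p6): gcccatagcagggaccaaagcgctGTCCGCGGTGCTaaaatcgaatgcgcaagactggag
Hrh3 (chr2:180104553-180104612, minus strand, GRCm38.p6): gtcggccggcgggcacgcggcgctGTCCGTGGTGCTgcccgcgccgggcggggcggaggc
Sptbn4 (chr7:27396259-27396318, minus strand, GRCm38.p6): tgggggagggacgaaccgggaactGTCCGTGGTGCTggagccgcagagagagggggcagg

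In the same way, the interferon-type element is shown in capitals, again on either strand, in promoters of 4 brain-low genes: B2m, the guanylate-binding protein Gbp2, the membrane protein Bst2 that tethers budding virus particles, and the antiviral enzyme Rsad2. In brain, Gbp2 lay at 0.0894 to 8.50, Bst2 at 0.834 to 8.67 and Rsad2 at 0.184 to 1.89 CPM.
B2m (chr2:122147523-122147582, plus strand, GRCm38.p6): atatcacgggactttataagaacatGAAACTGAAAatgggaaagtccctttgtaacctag
Gbp2 (chr3:142620579-142620638, plus strand, GRCm38.p6): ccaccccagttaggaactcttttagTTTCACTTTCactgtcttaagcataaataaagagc
Bst2 (chr8:71537568-71537627, minus strand, GRCm38.p6): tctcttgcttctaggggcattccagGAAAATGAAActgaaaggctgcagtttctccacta
Rsad2 (chr12:26456538-26456597, minus strand, GRCm38.p6): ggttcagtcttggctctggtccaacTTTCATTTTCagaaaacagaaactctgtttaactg

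Gene length differed between the groups. By gene identifiers matched to GENCODE M21, protein-coding brain-high genes spanned a median of 33.8 kb, brain-low genes 16.4 kb and all tested genes 23.9 kb. Genes longer than 100 kb made up 27.4%, 7.96% and 14.4% of these 3 groups. Long noncoding RNA genes were 13.5% of brain-high, 7.93% of brain-low and 10.7% of tested genes. Counts without strand information cannot separate a long gene from shorter genes that overlap it.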

How the data were processed

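Total RNA of frozen tissue was sequenced, and the authors deposited 1 table of estimated counts per gene, which need not be whole (26.8% of the values are not). The submitters' processing notes name GRCm39 and DESeq2. The aligner, counter, annotation and strand setting: not given in the sources used here. Counts were rounded, the 310 rows without a gene name entered the fits like the others, and library totals were 6624474 to 17706733. Libraries were kept by Pou5f1 below 1 CPM and an mt- share of at most 50%, filtered by organ (filterByExpr) and fitted together with edgeR 4.0.16 (quasi-likelihood, TMM, 1 term per organ). Benjamini-Hochberg adjusted p-values are over 19044 genes per contrast. No 2 libraries of an organ agreed within sampling noise. The script was tested on simulated data. DESeq2 1.42.0, limma 3.58.1 (voom), other scalings, filters and library choices were tried as alternatives. In the fits of brain with 1 other organ, a gene filtered out for low counts against any organ had no value there and was not called. The floor for groups without counts is 3 counts over the group, and covers counting error only.

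Named genes are Snap25, Syt1, the 25 brain-high and the 25 brain-low genes with the largest smallest difference among genes at 50 CPM or more, members of paralog families, and per list up to 4 called and 4 not called genes. Some genes under this rule are not reported here. Other genes were named after their values were seen, among them Csf1r, C1qa, Cldn5, Pdgfra, Ptgds and the markers of other organs. The members and lists were chosen with earlier results of these data known.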

Additional observations from a re-analysis of the deposited data

Results flagged for a closer look

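Of 64 groups of 4 to 10 libraries checked, 5 held a library far from the others. The rule's chance rate of about 1 in 20 does not hold for genes at 0 in most libraries. Where all other libraries are at 0, any count is flagged, as for Snap25 in kidney and in heart. The lists also share genes, so the groups are not independent. In kidney, the library in column 10 had Snap25 at 1.16 CPM where the other 8 were at 0, and Syt1 at 4.45 CPM where the others reached 0.708. The same library held the highest kidney level of Th, at 4.13 CPM, and of Mbp, at 23.6 CPM. In heart, the library in column 15 had Snap25 at 0.151 CPM where the others were at 0. The mean log2(CPM + 1) of the neuropeptide list was 0.79 in heart column 1 and 0.56 to 0.64 in the other heart libraries. That of the astrocyte list was 2.57 in heart column 11 and 2.28 to 2.35 in the others. The causes were not tested.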

How the results depend on the processing

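Brain-high calls moved by less than 1.5 times under every alternative run, from 2147 at 4-fold to 4087 with library totals only, and 2725 to 2976 with 1 of 55 libraries left out. Brain-low calls fell to 413 at 4-fold and to 371 with library totals only, rose to 1548 at any fold, and were 1011 to 1232 with 1 library left out. At 4-fold, genes lower in brain numbered 2997 against kidney, 3371 against liver, 3148 against small intestine, 2555 against heart and 2594 against muscle, 652 were lower against all but 1 organ, and 55 members of peripheral lists were brain-low. With library totals only, 3252 were lower than in liver, 8306 higher and 2701 lower than in heart, 10849 higher and 2021 lower than in muscle, 807 lower against all but 1 organ, and 52 peripheral list members brain-low. With libraries of at most 25% mt- counts, which leaves out heart, 2239 were lower against all but 1 organ.

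With 1 library left out, genes higher and lower than in kidney were 4856 to 5488 and 4743 to 5477, in liver 5805 to 6339 and 5164 to 5755, in small intestine 5966 to 6496 and 4694 to 5038, in heart 4991 to 5544 and 4046 to 4520, and in muscle 6194 to 6735 and 4631 to 5216. Genes that passed against all but 1 organ were 1241 to 1412 higher and 1280 to 1491 lower, and list members 231 to 238 brain-high and 93 to 111 brain-low.

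The smallest difference changed sign for B2m with library totals only (0.32), Ckm with limma-voom (0.14) and with 1 library left out (-3.33 to 2.91, the latter without kidney column 10), and Sox2 with all libraries (-1.50). The causes were not tested. No paired analysis was possible because the columns carry no replicate number from the labels. Genotypes are mixed in each organ, and 34 of 89 libraries were left out by Pou5f1 or mt- share.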
